A study of Mus musculus with 3 samples.

Results

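The genes described here build and drive the microtubule and intermediate filament networks of the cell: alpha tubulins, gamma tubulin ring complex proteins, end-binding proteins, stathmins, kinesins, subunits of cytoplasmic dynein, the filament proteins vimentin, desmin and nestin, and the lamins. They were taken by name from the annotation on the arrays, with the mitotic kinesins Kif11, Kif20a, Kif20b, Kif23, Kif2c and Kif4 left out. The rule gave 34 of 18117 gene or clone names on the arrays, with 46 of 20280 probes, and every probe of a gene was kept as a measurement of its own. The arrays carry older names for several of them, and the current symbols are used here: Tuba1a for Tuba1, Tuba3a for Tuba3, Tuba4a for Tuba4, Dync1h1 for Dnchc1, Dync1i1 for Dncic1, Dync1i2 for Dncic2, Dynlrb2 for Dncl2b, Dynll1 for Dnclc1 and Kif2a for Kif2. The rule also covers names that begin with Tubb, but none of the 34 genes is a beta tubulin, and that family was not analysed here.

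The RNA came from 3 cultures of mouse ovarian surface epithelium, the single cell layer that covers the ovary, prepared from superovulated and mated virgin C57/Bl6 females. How many animals went into a culture, and their age, are not given in the sources used here. Each culture was divided, with one portion kept epithelial in medium with 2.5% fetal bovine serum and the other held in 15% serum for 1 week, which brought about an epithelial to mesenchymal transition. Cells were collected at 80% confluence, so both groups share the dissociation, the medium base and the density, and differ in serum concentration. A culture's epithelial and mesenchymal RNA shared an Agilent array in different dyes, once in each orientation, which gives 2 arrays per culture, 6 arrays and n = 3 cultures. The question was which transcripts differ between the cells before and after the transition.

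Microtubules are hollow polymers of alpha and beta tubulin dimers that start from gamma tubulin rings and grow or shrink at their ends. Stathmins bind free tubulin and favour shrinking, and end-binding proteins ride on growing tips. Kinesins and cytoplasmic dynein walk along the polymer with cargo, in opposite directions for most family members, and some kinesins act on chromosomes in the spindle. Vimentin, desmin and nestin form cytoplasmic intermediate filaments, and vimentin is widely used as a marker of mesenchymal cells, while lamins line the nucleus.

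The unit throughout is the log2 ratio of mesenchymal over epithelial RNA, so that a value of 1 is a doubling and a negative value is a lower level in the mesenchymal cells. The 2 arrays of a culture were turned the same way and averaged, and limma tested the 3 culture values against 0 with Benjamini-Hochberg adjustment over all 20109 probes tested. A probe was called at an adjusted p under 0.05. The cultures are separate per the labels, and a culture's own ratio pairs its cells before and after the change. On the arrays as a whole, 50 to 454 probes carried an outlier flag on 5 arrays and 1622 on the array of culture 3 that had the mesenchymal RNA in Cy3. Negative control spots were marked well above background at rates of 18.5% to 81.5%, so that mark says little about a dim probe. By a stricter measure, all 46 probes exceeded the 95th percentile of the negative controls for both RNAs on all 6 arrays. Of 11 surface epithelium and mesothelium marker genes measured, all exceeded that level too, and 6 of them were lower in the mesenchymal cells, while 0 rose. Among these, Gpm6a had a log2 ratio of -2.97 and Msln one of -2.07. Of the markers of other cells, 2 of 7 granulosa genes (Inhba and Inhbb), 2 of 8 theca and stroma genes (Pdgfra and Ogn), 2 of 5 smooth muscle and pericyte genes (Acta2 and Actg2) and 1 of 4 neuron and glia genes (Gap43, at -0.51) were lower, and 1 of 5 oocyte genes (Ddx4) was higher. The 4 endothelial, 2 blood and 2 ciliated cell genes measured gave 0 calls in limma, with 1, 0 and 0 at an unadjusted p under 0.05. The part of these cells in the member ratios was not tested. In RNA from whole cultures, fewer cells of a type and less RNA per cell cannot be told apart.

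Of 45 member probes tested, 10 were called, 6 higher and 4 lower in the mesenchymal cells, which is 22.2% of them. Over all probes tested, 11.3% were called, with 5.61% higher and 5.67% lower. With the scanner software's own processed ratios the call was 4 higher and 5 lower, and with the authors' deposited value table it was 4 higher and 6 lower. The called probes stand for 9 genes: Tuba3a, Tuba4a, Mapre1, Kif18a, Kif22-ps and Kif3b had a higher probe, and Kifc3, Dync1i1, Kif5b and again Tuba4a a lower one. The differences were small. The median member ratio was 0.05 and the median size without sign 0.15, against 0.10 over all probes, and 0 members reached a 2-fold difference, which 1.76% of all probes did. At 1.5-fold there were 5 of the 45 members tested, a larger share than the 5.47% of all probes. The count rested on the cultures included: without culture 1 it was 22 of 44 (32.3% of all probes were then called), without culture 2 it was 4 of 44 (6.56% of all probes), and without culture 3 it was 3 of 43 (4.18% of all probes). A limma fit that set 3 epithelial against 3 mesenchymal intensities and ignored the pairing called 0 of 45, with 5 at an unadjusted p under 0.05.

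**Figure D1:**
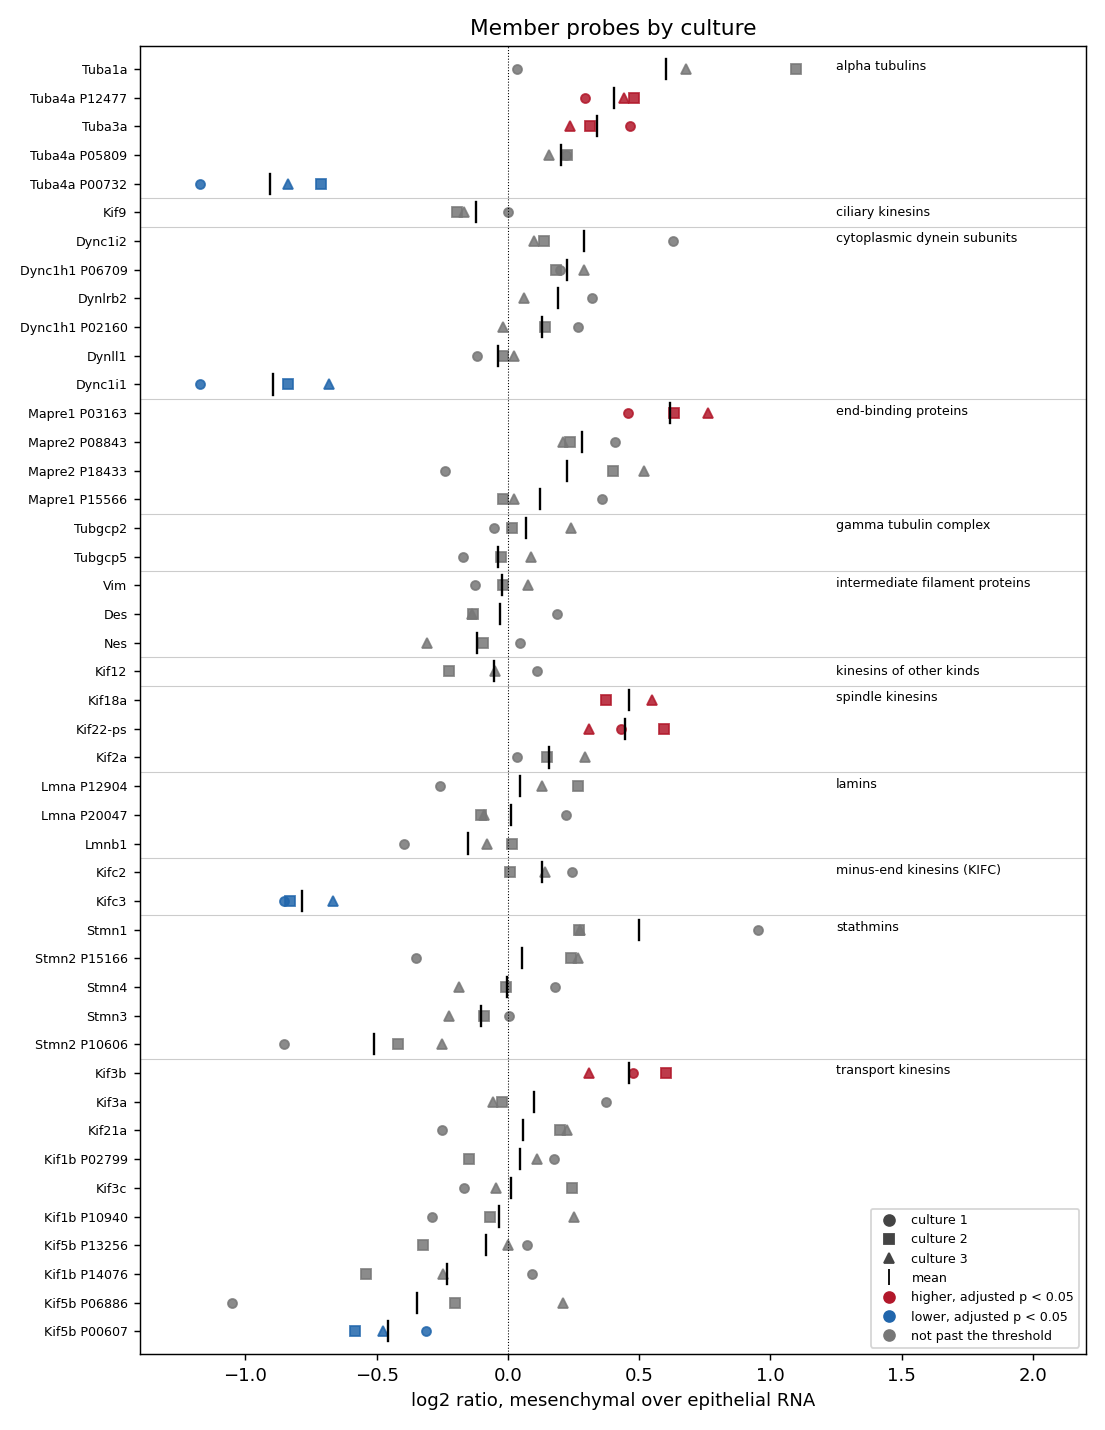
Log2 ratio of mesenchymal over epithelial RNA (horizontal axis) for each of the 45 member probes tested (rows, grouped by role), with 1 point for each culture that measured the probe and a bar at the mean. The 6 red probes were higher and the 4 blue probes lower at an adjusted p under 0.05 in limma, and most of the other probes have points on both sides of 0.

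The cultures did not give the same picture of the members. Of 45 probes tested, 19 had one sign in all 3 cultures, which is 44.2% of the 43 measured in each culture. That is near the 39.1% of all probes tested, a share whose base includes probes measured in only 2 cultures. Of the 43 measured in each culture, 13 had the opposite sign in culture 1 to both others, compared with 5 for culture 2 and 6 for culture 3. Across members, the Pearson correlation was 0.88 between cultures 2 and 3, 0.60 between 1 and 2, and 0.54 between 1 and 3. These are descriptions across probes of the same arrays, and probes are not independent replicates. The opposite-sign counts and the correlations were taken over members only, so whether they are particular to the members was not tested.

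The dye was the other large source of spread. The dye effect is the log2 ratio of Cy5 over Cy3 signal that remains when both orientations are averaged. Over the members its SD was 0.69, against 0.35 for the biological ratio, and over all probes the same values were 0.48 and 0.31. It passed the threshold for 26 of 45 members, or 57.8%, close to the 57.7% of all probes. For 27 members, 5 of the called ones among them, it exceeded the size of the biological ratio. One sign on all 6 arrays was found for 7 of 45 members, or 15.6%, against 10.4% of all probes. Among called probes it was found for 4 of 10 members, against 60.9% of all called probes. Members both called and of one sign made up 8.89% of those tested, against 6.87% of all probes. Those 4 were Kifc3, Dync1i1, Kif3b and one Tuba4a probe. The exchanged dyes cancel such an effect in a culture's mean, but a ratio that changes sign with the dye rests on that cancelling.

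**Figure D2:**
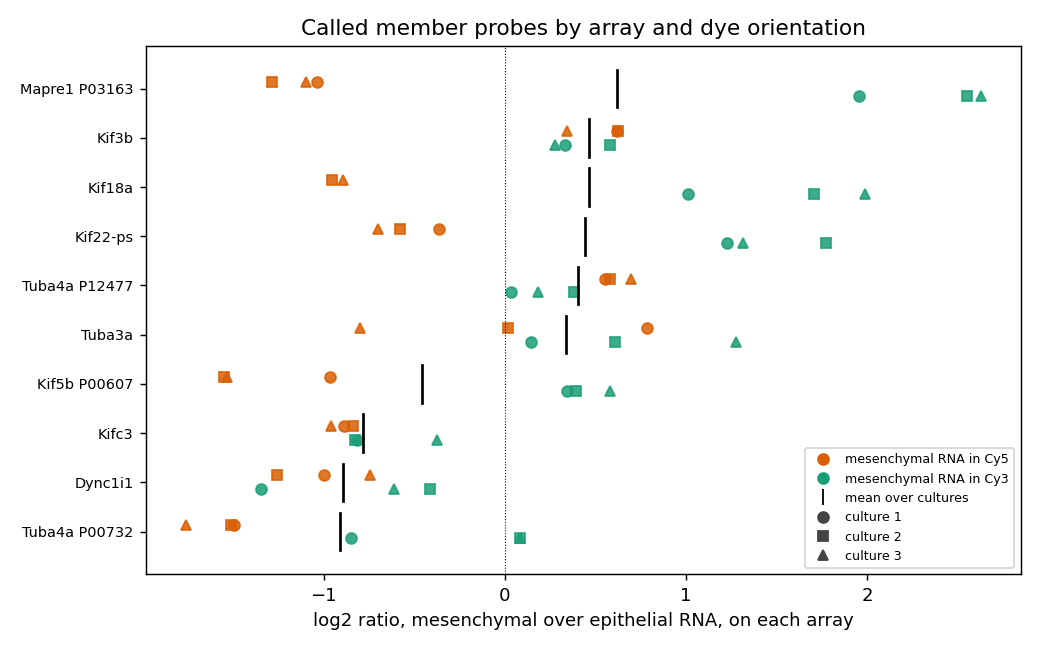
Log2 ratio of mesenchymal over epithelial RNA on each array (horizontal axis) for the 10 called member probes (rows), coloured by the dye of the mesenchymal RNA and shaped by culture, with a bar at the mean over cultures. Kifc3 and Dync1i1 lie below 0 on all 6 arrays and Kif3b above 0 on all 6, whereas the 2 dye orientations of Mapre1 lie on opposite sides of 0.

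The proximal promoters of 5 called genes are shown so that the regulatory sequence next to each start can be read beside its values. They are the 150 bases before the annotated start, 5′ to 3′ on the gene's own strand, from RefSeq's GRCm38.p6 table. Capitals mark 4 short motifs on either strand: the CCAAT box (CCAAT), the cell-cycle homology region (TTTGAA), the E-box bound by Snail factors (CAGGTG) and the GC box (GGGCGG). None of these motifs lies within another. The Kif22 sequence is printed for the probe named Kif22-ps, whose accession is that of Kif22. Not shown are Kif18a and Kif3b, whose windows overlap another gene, and Kifc3 and Kif5b.
Dync1i1, chr6:5725489-5725638, plus strand: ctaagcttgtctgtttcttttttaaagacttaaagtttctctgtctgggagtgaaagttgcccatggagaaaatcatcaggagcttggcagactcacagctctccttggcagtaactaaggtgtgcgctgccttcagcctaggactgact
Mapre1, chr2:153741137-153741286, plus strand: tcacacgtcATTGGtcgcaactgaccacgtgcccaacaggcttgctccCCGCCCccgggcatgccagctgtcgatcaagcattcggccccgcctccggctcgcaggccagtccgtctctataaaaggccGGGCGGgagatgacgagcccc
Tuba3a, chr6:125286082-125286231, minus strand: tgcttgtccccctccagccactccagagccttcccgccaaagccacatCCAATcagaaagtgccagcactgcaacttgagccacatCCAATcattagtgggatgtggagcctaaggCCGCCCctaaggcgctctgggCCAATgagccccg
Tuba4a, chr1:75219295-75219444, minus strand: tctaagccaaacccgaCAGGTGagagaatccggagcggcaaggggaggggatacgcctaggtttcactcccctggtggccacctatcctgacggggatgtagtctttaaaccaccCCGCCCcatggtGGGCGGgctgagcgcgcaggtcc
Kif22, chr7:127042421-127042570, minus strand: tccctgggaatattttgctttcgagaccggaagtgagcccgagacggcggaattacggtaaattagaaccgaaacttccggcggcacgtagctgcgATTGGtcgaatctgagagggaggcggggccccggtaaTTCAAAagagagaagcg
Over the 250 bases before the start, 4 of 7 called genes with an entry held a CCAAT box, 5 a GC box, 2 the E-box and 1 the cell-cycle element. The shares of all 32851 promoters in the table were 33.8%, 32.7%, 17.2% and 16% in the same order. Dync1i1, which fell, held none of the 4 motifs in this window, and Tuba4a held the E-box and 2 GC boxes. A match is a string of letters and not a measured site.

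Among the alpha tubulins, the dimer subunit of the polymer, 2 of 5 probes rose and 1 fell. Tuba3a read 13.82, 13.65 and 12.98 log2 intensity units in the epithelial RNA of cultures 1, 2 and 3 and 14.28, 13.96 and 13.22 in the mesenchymal RNA. The groups overlapped, because culture 3 was dimmer in both RNAs, but each culture was higher after the transition, by 0.46, 0.31 and 0.24. The mean was 0.34 ± 0.12 (SD, n = 3; 1.26-fold, adjusted p = 0.0442 in limma), with 5 of 6 arrays above 0. Leaving out culture 2 or 3 ended this call, at 0.35 (adjusted p = 0.174) and 0.39 (adjusted p = 0.178). So did median centring, the scanner's processed ratios, the authors' deposited table, trend and robust eBayes and a fit of 6 arrays with a dye term (adjusted p = 0.518), which gave 0.11 (adjusted p = 0.900) without the heavily flagged array of culture 3.

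Tuba4a, an alpha tubulin isotype abundant in muscle and brain, had 3 probes that disagreed. Probe A_65_P12477, whose accession is that of Tuba4a, read 13.45, 13.31 and 13.18 in epithelial RNA and 13.75, 13.80 and 13.63 in mesenchymal RNA, with no overlap between the groups. Its ratios were 0.29, 0.48 and 0.44, a mean of 0.41 ± 0.10 (SD, n = 3; 1.32-fold, adjusted p = 0.0218 in limma), and all 6 arrays lay above 0. Its call too was lost without culture 2, at 0.37 (adjusted p = 0.140), and without culture 3, at 0.39 (adjusted p = 0.189). Probe A_65_P05809 leaned the same way, with 0.22, 0.23 and 0.16 and 6 of 6 arrays above 0, but did not pass (mean 0.20 ± 0.04 SD, adjusted p = 0.135). Probe A_65_P00732 went the other way, with ratios of -1.17, -0.71 and -0.84 and a mean of -0.91 ± 0.24 (SD, n = 3; 1.88-fold lower, adjusted p = 0.00433), the largest ratio in size among the members tested. On this probe 4 of 6 arrays lay below 0 and 2 above, with a dye effect of -0.68. Its call held without each culture in turn. That probe carries no accession that names a RefSeq gene, which also holds for A_65_P05809 and for other members, the called probes of Kif3b and Kif5b among them. Of the 46 member probes, 27 carry an accession that names their own gene. The second version of the annotation, carried by 1 array of culture 3, also names A_65_P00732 Tuba4 but describes its clone as similar to a human genomic clone. What A_65_P00732 reports is therefore uncertain.

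Tuba1a, the alpha tubulin most abundant in growing neurons and in many dividing cells, had a large but uneven ratio. It was 0.03 in culture 1, 1.10 in culture 2 and 0.68 in culture 3 (mean 0.60 ± 0.54 SD, n = 3; adjusted p = 0.114). The 3 arrays with its mesenchymal RNA in Cy3 lay above 0 and the other 3 below, a dye effect of -1.28. Alpha tubulin genes have nearly the same coding sequence, and probe sequences were not used here, so which isotype a probe reports was not tested.

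The end-binding protein EB1, encoded by Mapre1, recruits other proteins to growing microtubule tips, and 1 of its 2 probes rose. Probe A_65_P03163 read 13.37, 12.95 and 12.43 in epithelial RNA and 13.83, 13.59 and 13.19 in mesenchymal RNA. Each culture was higher after the transition, by 0.46, 0.63 and 0.76, although the groups overlapped (mean 0.62 ± 0.15 SD, n = 3; 1.53-fold, adjusted p = 0.00783 in limma). The dye effect on this probe, -1.76, was larger than the ratio, and 3 of 6 arrays lay on each side of 0. Without culture 3 the call was lost, at 0.55 (adjusted p = 0.0816). The other probe, A_65_P15566, was saturated on 5 arrays for mesenchymal and 4 for epithelial RNA and gives no fold. Mapre2, which encodes the related EB2, had 2 probes that did not pass. A_65_P08843 gave 0.41, 0.24 and 0.21 with all 6 arrays above 0 (mean 0.28 ± 0.11 SD, adjusted p = 0.0712), and A_65_P18433 gave -0.24, 0.40 and 0.52 (mean 0.23 ± 0.41 SD, adjusted p = 0.477). A_65_P08843 carries the accession of Mapre2, but the second annotation names its spot Mmp14, so its identity is uncertain. A_65_P18433 did not match RefSeq by gene ID, and the second annotation names it D18Abb1e.

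None of the 5 stathmin probes, for 4 genes that bind and sequester tubulin dimers, was called in limma, with 2 at an unadjusted p under 0.05. Stmn1, the stathmin of proliferating cells, read 14.61, 14.85 and 15.02 in epithelial RNA and 15.56, 15.12 and 15.30 in mesenchymal RNA, without overlap. Culture 1 moved most, with ratios of 0.95, 0.27 and 0.28 (mean 0.50 ± 0.39 SD, n = 3; adjusted p = 0.0929). Stmn2, a neuronal stathmin, had one probe at -0.85, -0.42 and -0.25 with all 6 arrays below 0 (A_65_P10606, mean -0.51 ± 0.31 SD, adjusted p = 0.0534) and another at -0.35, 0.24 and 0.27 (A_65_P15166, mean 0.05 ± 0.35 SD, adjusted p = 0.882). The 2 probes are thus no joint evidence for a direction, and A_65_P10606 was dim, at 8.53 to 8.90 in epithelial RNA. Stmn3 and Stmn4, also neuronal, had means of -0.10 and -0.0035.

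The 2 proteins of the gamma tubulin ring complex, from which microtubules start, showed no call in limma and 0 unadjusted p under 0.05. Tubgcp2 gave -0.05, 0.02 and 0.24 (mean 0.07 ± 0.15 SD, adjusted p = 0.737). Tubgcp5 gave -0.17, -0.03 and 0.09 (mean -0.04 ± 0.13 SD, adjusted p = 0.855).

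Kinesins that carry cargo were the largest group, with 6 genes and 11 probes, of which 10 were tested. Kif3b, a motor subunit of the heterotrimeric kinesin that also serves cilia, read 10.26, 9.70 and 9.95 in epithelial RNA and 10.74, 10.30 and 10.26 in mesenchymal RNA. The ratios were 0.48, 0.60 and 0.31, all 6 arrays lay above 0, and the dye effect was 0.07. Its mean was 0.46 ± 0.15 (SD, n = 3; 1.38-fold, adjusted p = 0.0201 in limma). The rise did not extend to the partner gene Kif3a as a call, which gave 0.37, -0.02 and -0.06 (mean 0.10 ± 0.24 SD, adjusted p = 0.685). Kif3c, which encodes an alternative partner of Kif3a, averaged 0.01 ± 0.21 (SD), with a saturated spot on 2 arrays for mesenchymal and 3 for epithelial RNA. Without culture 2 or 3 Kif3b was no longer called, at 0.39 (adjusted p = 0.116) and 0.54 (adjusted p = 0.0783).

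Kif5b, the heavy chain of conventional kinesin in most cell types, had 4 probes, with 1 called lower. The bright probe A_65_P00607 read 15.10, 15.11 and 14.36 in epithelial RNA and 14.79, 14.53 and 13.88 in mesenchymal RNA. Each culture was lower, by ratios of -0.31, -0.58 and -0.48, with a mean of -0.46 ± 0.14 (SD, n = 3; 1.37-fold lower, adjusted p = 0.0197 in limma). The groups overlapped, 3 of 6 arrays lay on each side of 0, and the dye effect was -0.89. Without culture 2 or 3 the ratio was -0.39 (adjusted p = 0.116) or -0.45 (adjusted p = 0.155). The other probes had means of -0.35 (A_65_P06886, with a dye effect of -2.89) and -0.08 (A_65_P13256), and A_65_P20805 was measured in culture 1 alone, at -0.61. All 4 means were thus below 0, with 1 past the threshold, but the cultures did not all share that sign. In cultures 1, 2 and 3, A_65_P06886 gave -1.05, -0.20 and 0.21 and A_65_P13256 gave 0.07, -0.32 and 0.001. The 3 probes of Kif1b, a motor for mitochondria and synaptic vesicle precursors, averaged 0.05, -0.03 and -0.23, and Kif21a averaged 0.06.

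Kifc3, a minus-end directed kinesin linked to the apical transport and the cell junctions of epithelia, fell in every culture and on every array. It read 15.48, 15.55 and 15.55 in epithelial RNA and 14.63, 14.72 and 14.89 in mesenchymal RNA, with a wide gap between the groups. The ratios of -0.85, -0.83 and -0.67 gave a mean of -0.78 ± 0.10 (SD, n = 3; 1.72-fold lower, adjusted p = 0.00241 in limma), the smallest adjusted p among the members. Its dye effect was -0.11, and leaving out each culture in turn gave -0.84 to -0.75, all called. Kifc2, the other kinesin of this kind, had 0.24, 0.01 and 0.14 (mean 0.13 ± 0.12 SD, adjusted p = 0.412).

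Of 3 kinesins that act on the spindle and chromosomes and that the rule kept, 2 rose. Kif18a, which shortens microtubules at the chromosome attachment sites, was measured on both arrays in cultures 2 and 3 only. It read 11.28 and 10.76 there in epithelial RNA and 11.66 and 11.30 in mesenchymal RNA, so the groups came close without overlap. The ratios were 0.38 and 0.55 (mean 0.46 ± 0.12 SD, n = 2; adjusted p = 0.0474 in limma), with a dye effect of -1.39. Keeping the flagged spot of culture 1 gave 0.32 (adjusted p = 0.135), and no fit was possible without culture 2 or 3. A fit of 6 arrays with a dye term gave 0.29 (adjusted p = 0.300), and 0.19 (adjusted p = 0.567) without the heavily flagged array of culture 3. The probe named Kif22-ps, a processed copy of Kif22, carries the accession of Kif22, whose protein moves chromosome arms, and the files do not separate the gene from the copy. It read 12.04, 11.84 and 11.61 in epithelial RNA and 12.47, 12.43 and 11.92 in mesenchymal RNA. Ratios of 0.43, 0.60 and 0.31 gave a mean of 0.44 ± 0.14 (SD, n = 3; 1.36-fold, adjusted p = 0.0225), with 3 of 6 arrays on each side of 0 and a dye effect of -0.99. Without culture 2 or 3 it was 0.37 (adjusted p = 0.136) or 0.51 (adjusted p = 0.0931). Kif2a, which takes microtubule ends apart, gave 0.03, 0.15 and 0.29 (mean 0.16 ± 0.13 SD, adjusted p = 0.324). Kif9, a kinesin of motile cilia, averaged -0.12 ± 0.11 (SD) and Kif12 averaged -0.05 ± 0.17 (SD), and neither passed.

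Cytoplasmic dynein is the main minus-end motor, and of 6 probes for 5 of its subunit genes 1 fell and 5 did not pass. Dync1i1, an intermediate chain known best from neurons, read 11.82, 11.47 and 11.65 in epithelial RNA and 10.65, 10.63 and 10.97 in mesenchymal RNA. The groups were well apart, and all 6 arrays lay below 0. Its ratios of -1.17, -0.84 and -0.68 gave a mean of -0.90 ± 0.25 (SD, n = 3; 1.86-fold lower, adjusted p = 0.00506 in limma), with a dye effect of -0.10. Leaving out each culture in turn kept the call, at -1.0 to -0.76. The intermediate chain found in all cells, Dync1i2, leaned up without passing, at 0.63, 0.14 and 0.10 (mean 0.29 ± 0.30 SD, adjusted p = 0.216). The heavy chain Dync1h1, which holds the motor domain, had 2 probes with means of 0.13 ± 0.14 (SD, A_65_P02160, adjusted p = 0.448) and 0.23 ± 0.06 (SD, A_65_P06709, adjusted p = 0.109). The light chain Dynlrb2 gave 0.32 in culture 1 and 0.06 in culture 3. Dynll1, another light chain, was saturated on 5 arrays for each RNA and gives no fold.

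**Figure D3:**
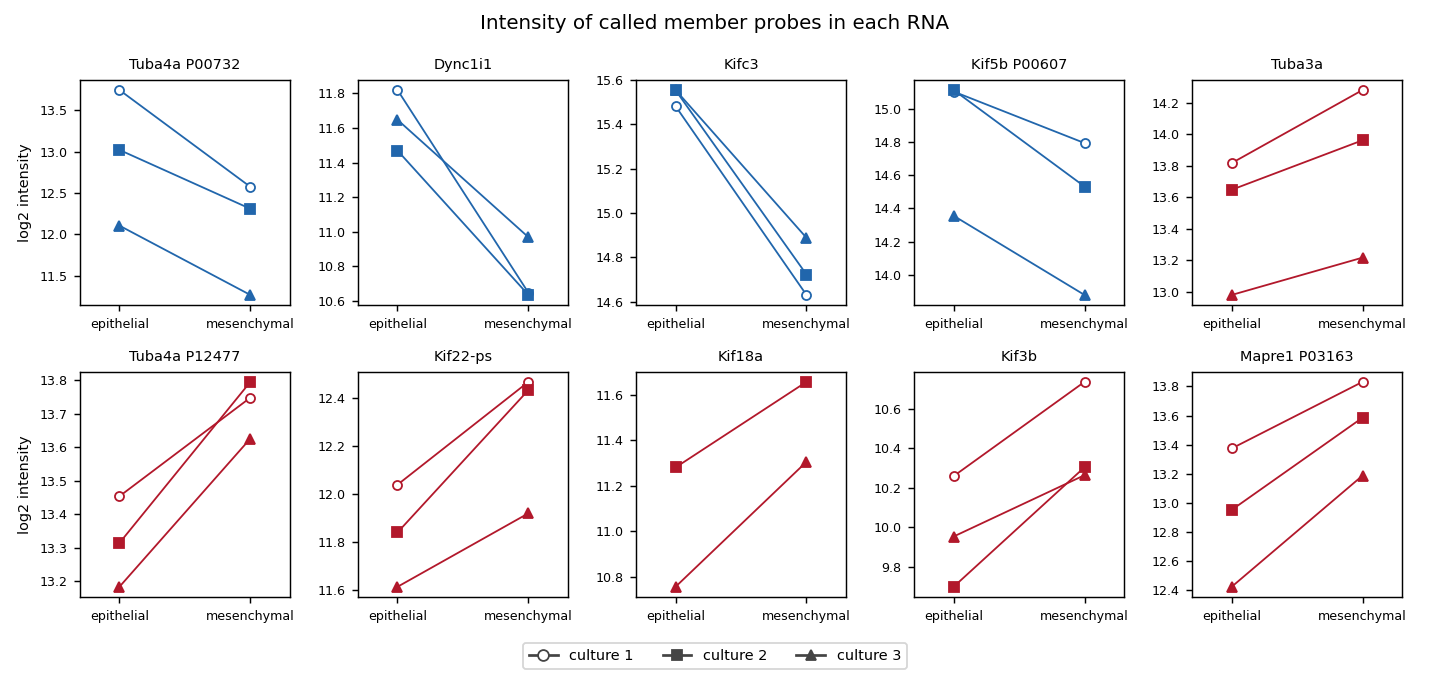
Log2 intensity (vertical axes, each with its own range) of the 10 called member probes in the epithelial and mesenchymal RNA of each culture, after loess and scaling of the arrays to a common distribution of brightness, with a line joining the 2 RNAs of a culture. Blue lines fall and red lines rise, and in Kifc3 and Dync1i1 all mesenchymal points lie below all epithelial points.

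The intermediate filament genes gave no call in limma, with 0 of 3 probes at an unadjusted p under 0.05. Vim, the filament protein of mesenchymal cells, was at the top of the scanner's range in both RNAs: its spot was saturated on all 6 arrays for mesenchymal and on 5 of 6 for epithelial RNA. The vimentin spot was thus at its upper limit both before and after the transition, and no fold is given for it. Des, the filament protein of muscle, gave 0.19, -0.13 and -0.14 (mean -0.03 ± 0.19 SD, adjusted p = 0.907). Nes, the filament protein of progenitor cells, gave 0.05, -0.09 and -0.31 (mean -0.12 ± 0.18 SD, adjusted p = 0.548). Both were dim, at 8.74 to 9.53 for Des and 9.86 to 10.89 for Nes in epithelial RNA, with no saturated spot. For these genes the spread between cultures exceeded the mean.

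The lamins likewise had 0 of 3 probes called in limma and 0 at an unadjusted p under 0.05. Lmna, which encodes the A-type lamins, had probe A_65_P20047 at 0.22, -0.10 and -0.09 (mean 0.01 ± 0.18 SD, adjusted p = 0.967) and probe A_65_P12904 at -0.26, 0.27 and 0.13 (mean 0.05 ± 0.27 SD, adjusted p = 0.872). Culture 1 had the opposite sign to both others at each probe, and the opposite sign between the probes. Lmnb1, the B-type lamin of most cells, gave -0.40, 0.02 and -0.08 (mean -0.15 ± 0.22 SD, adjusted p = 0.451).

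For 8 genes the rule took more than 1 probe, 20 in all. Over probes that were tested and had no saturated spot, the means of one gene lay 0.04 apart for Lmna, 0.06 for Mapre2, 0.10 for Dync1h1, 0.28 for Kif1b and 0.37 for Kif5b. They lay 0.56 apart for Stmn2 and 1.31 for Tuba4a, and Mapre1 had 1 such probe. The wider of these gaps exceeded most of the ratios described above.

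Partners of these genes were read from lists of related genes, with the brightest probe of a gene standing for it. Over all gene and clone names, 11.4% of such probes were called, 5.69% higher and 5.69% lower. Of 21 tubulin folding and modification genes, 7 rose, 0 fell and 14 did not pass, with a median of 0.15. Pfdn5 and Pfdn1, subunits of the prefoldin chaperone that hands unfolded tubulin on, rose by 0.74 ± 0.05 and 0.47 ± 0.03 (SD, n = 3). The tubulin cofactor Tbcb rose by 0.56 ± 0.14 (SD) and Vash2, of the family that removes the last tyrosine of alpha tubulin, by 0.59 ± 0.17 (SD). The called genes Hdac6 and Ttll12 had means of 0.37 and 0.34. Tbca, another cofactor, was called at 0.40 with its spot saturated on 3 of 6 arrays for mesenchymal RNA, so that value is uncertain.

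Among 19 genes for dynactin and other dynein regulators, 3 rose, 2 fell and 14 did not pass, with a median of 0.09. Bicd1, an adaptor between dynein and its cargo, fell by 1.46 ± 0.42 (SD, n = 3; adjusted p = 0.0035 in limma). The dye effect on its probe, -1.72, was larger than the ratio, and 2 of 6 arrays lay above 0 and 4 below. Pafah1b1, also known as Lis1, fell by 0.63 ± 0.18 (SD). Another Pafah1b1 probe, A_65_P13524, leaned the other way, with ratios of 0.06, 0.22 and 0.15 and 6 arrays above 0. It did not pass (mean 0.14 ± 0.08 SD, adjusted p = 0.319 in limma), so the direction for this gene is uncertain. The dynactin subunits Dctn3 and Dctn2 rose by 0.45 ± 0.18 and 0.40 ± 0.16 (SD), and the adaptor Hook2 by 0.46 ± 0.19 (SD). A dimmer probe of Nudc was called too, at -0.41 (adjusted p = 0.0210). Calls for the partners of dynein thus lay in both directions.

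The 22 microtubule-associated and severing proteins included 1 that rose, 2 that fell and 19 that did not pass, with a median of 0.02. Clip1, a plus-tip protein, fell by 0.35 ± 0.13 (SD, n = 3), and Map4, the microtubule-associated protein of most cells outside the nervous system, fell by 0.33 ± 0.11 (SD). Map1lc3b, better known for autophagy than for microtubules, was higher by 0.95 ± 0.13 (SD, n = 2). Dclk1, a microtubule-binding kinase, counts among those not past the threshold because its brightest probe was at -0.13, but its dimmer probe A_65_P05309 was called at 0.95 ± 0.32 (SD, n = 3; adjusted p = 0.00713 in limma). The 5 other intermediate filament genes and the 12 nuclear envelope genes gave 0 calls in limma, with 0 and 2 at an unadjusted p under 0.05 and medians of 0.01 and -0.04.

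Of 32 mitotic proliferation genes, which include kinesins outside the rule, 6 rose, 2 fell and 24 did not pass, with a median of 0.09. Bub1, a spindle checkpoint kinase, rose by 0.70 ± 0.21 (SD, n = 3) and Nuf2, a kinetochore protein, by 0.54 ± 0.20 (SD). Birc5, also known as survivin, rose by 0.62 ± 0.28 (SD) at its brightest probe, and fell by 0.36 ± 0.08 (SD) at another. Anln, an actin-binding protein of the cleavage furrow, fell by 0.79 ± 0.14 (SD), and Mki67, the proliferation marker, by 0.35 ± 0.08 (SD). A dimmer probe of Spc25, a kinetochore gene, was called at 0.49 (adjusted p = 0.0129). The list moved in both directions beside the rises of Kif18a and Kif22-ps, and its part in those was not tested.

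**Figure D4:**
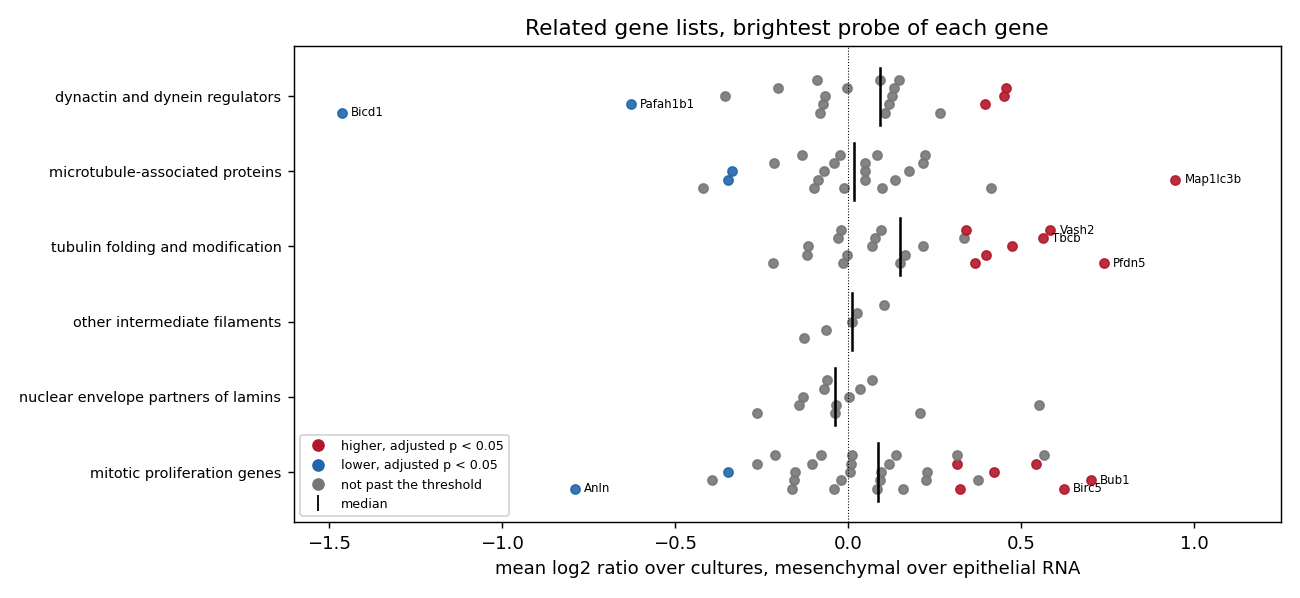
Mean log2 ratio of mesenchymal over epithelial RNA over the cultures (horizontal axis) for each gene of 6 related lists (rows, points spread vertically to separate them), with a bar at the median of each list. Tubulin folding and modification holds 7 genes higher and 0 lower, and the other lists hold calls in both directions or none.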

How the data were processed

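Per the file headers, the arrays were read with Agilent Feature Extraction, and the deposited scanner files give spot and background intensity for Cy3 and Cy5, flags, and a log10 ratio of processed signals. In the value table the authors deposited, each culture has 1 column of log10 ratios. Its columns matched the scanner's turned ratios in scale and direction (Pearson r = 1, 0.999999 and 0.999999 over probes, slopes 1.00002, 1.00002 and 0.999971). The column medians were 0.00564, -0.0102 and -0.00229. limma is listed in the submitters' processing notes, with its settings not given in the sources used here. The dye of each RNA was taken from the deposited files' names.

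Intensities were background-corrected with normexp (offset 50) and loess-normalised within arrays, with control spots at weight 0, in limma 3.58.1 (R 4.3.3). Outlier-flagged spots were left out and saturated spots kept. Log2 ratios from the deposited intensities were turned to mesenchymal over epithelial and averaged over the 2 arrays of a culture, where both were unflagged. Probes tested had 1 RNA marked well above background on 4 or more of the 6 arrays and were measured in at least 2 cultures (lmFit and eBayes, 2-sided). This left 20109 of 20280 probes, and 91 retired spots were left out. The calculation was tested on simulated ratios. Of the 46 member probes, 45 matched RefSeq by gene ID. Called members, Vim, Des, Nes, the lamins and the 2 brightest genes of each role with fewer than 2 called genes are named with their values, and from each related list up to 4 called genes with the largest ratios. Members named beyond that were chosen after their values were seen. Members, roles and lists were chosen with earlier results of these data known. The number of cultures limits the precision. Alternatives tried are given at the end.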

Additional observations from a re-analysis of the deposited data

How the results depend on the processing

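Every one of the 10 called member probes kept its direction under each alternative run. Kifc3, Dync1i1 and the Tuba4a probe A_65_P00732 lost their call only in the fit with no replicate block, which ignores the pairing within a culture: there 0 member probes and 256 of all probes were called, against 10 and 2269. Leaving out each culture in turn gave 3 to 22 member probes and 802 to 5864 of all probes, the highest without culture 1. With eBayes using trend and robust 6 members were called, and at an adjusted p under 0.01 there were 4, with 960 of all probes. The cause was not tested, other than that a stricter threshold calls fewer. Median centring, the scanner's processed ratios, the authors' value table, the offset, the filters, saturated or flagged spots, the brightest probe of each gene and a dye-term fit on 6 arrays gave 8 to 11 members. A dye-term fit without the heavily flagged array of culture 3, chosen after seeing the data, gave 7, and a filter on the negative controls, also chosen then, gave 10. Tuba3a and Kif18a also lost their call under median centring, the scanner's processed ratios, the authors' table and both dye-term fits. Of 22 named probes that were not called, 7 were called under some alternative, Stmn2 A_65_P10606 under 7 of them. A slide or scan block was not run, because no slide held more than 1 array. Saturation limits Vim, Dynll1, one Mapre1 probe and, on fewer arrays, Kif3c.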

Other observations

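Probes that the arrays file under other names, and that were looked up by description after the members' values were known, add to the families described above. Probe A_65_P14602, which the second annotation describes as similar to the vimentin gene, was saturated on 1 array for mesenchymal RNA only and gave -0.60, 0.54 and 0.53 in cultures 1, 2 and 3, with a dye effect of -2.40, so it supplies no direction for vimentin either. A probe that one annotation describes as similar to the beta tubulin Tubb5 and the other as similar to a WASP family gene (A_65_P10306) was saturated on 5 arrays for mesenchymal and 4 for epithelial RNA, and no fold is given for it. Klc1, a kinesin light chain that the arrays call Kns2, gave 0.09, 0.40 and 0.69 (mean 0.39 ± 0.30 SD, adjusted p = 0.104 in limma), with a dye effect of -1.38. Tubd1, delta tubulin of the centriole, gave -0.10, 0.83 and 0.66 (mean 0.46 ± 0.49 SD, adjusted p = 0.182). Lmnb2, the second B-type lamin gene, averaged -0.13 ± 0.07 (SD), close to Lmnb1, and like it did not pass (adjusted p = 0.383 in limma). Its dye effect was 0.42, with 3 of 6 arrays on each side of 0. An expressed sequence described as weakly similar to a stathmin, and in the second annotation as similar to a human genomic clone (A_65_P03365), was lower, with ratios of -0.38, -0.45 and -0.24 (mean -0.36 ± 0.11 SD, n = 3; adjusted p = 0.0360), with 2 of 6 arrays above 0 and 4 below. Klc1, Tubd1 and the vimentin probe had their lowest value in culture 1, whereas among the members culture 1 was lowest for some probes and highest for others.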
